A study of Homo sapiens with 9 samples.

Results

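The genes described here are the SOX, PAX, LHX, POU, NKX and SIX-family transcription factors of DMS273, a human small cell lung cancer cell line. They are the rows of the raw count table whose gene name has 1 of these 6 stems followed by the family's numbering. POU2F3 and NKX2-1 were left out by the rule. It took 77 of the 67140 rows, which carry 69 different symbols, namely 20 rows each of the SOX and POU families, 13 of NKX, 9 each of PAX and LHX, and 6 of the SIX-family. The 8 surplus rows are further identifiers of POU5F1, LHX1 and SOX7 that never received a count. RNA depleted of rRNA was sequenced in 3 libraries of each of 3 genotypes. These were DMS273 cells edited with CRISPRv2 in both ATG7 and SQSTM1 (ATG7/SQSTM1 KO), cells edited in ATG7 alone (ATG7 KO), and cells of genotype WT that carried the guide named sgScr (control). ATG7 is the E1-like enzyme of autophagosome formation, and SQSTM1 (p62) is a cargo receptor that autophagy degrades. Whether edited cells were cloned or kept as a pool is not stated in the labels. Nor is it stated that the libraries of a genotype came from separate cultures, so the p-values may reflect technical spread among them alone. Because all 3 comparisons draw on the same 9 libraries, they are not independent of each other.

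All of these genes encode DNA-binding proteins that act in the choice of cell fate in the embryo. SOX proteins bend DNA through an HMG box, PAX proteins bind through a paired domain, and LHX proteins join a homeodomain to LIM domains that recruit LDB cofactors. POU proteins read an octamer sequence with a POU-specific domain and a POU homeodomain, NKX proteins carry a homeodomain of the NK type, and SIX-family proteins act with EYA coactivators and DACH corepressors. Many of them are active in neural, sensory, foregut and endocrine tissue. Small cell lung cancer is usually a neuroendocrine tumour, and neural members of these families are often found in it.

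Library totals ran from 28675576 to 34222098 counts, and levels are given as CPM, counts scaled to library size with TMM factors. At this depth 3 counts, used as the floor of detection, correspond to between 0.0877 and 0.105 CPM. Of the targeted genes, ATG7 stood at 11.2, 10.4 and 10.2 CPM in ATG7/SQSTM1 KO, 12.0, 9.99 and 13.0 CPM in ATG7 KO and 28.1, 26.4 and 26.8 CPM in control. SQSTM1 stood at 55.3, 48.8 and 51.6 CPM in ATG7/SQSTM1 KO, 387.5, 396 and 389 CPM in ATG7 KO and 380.2, 375 and 373 CPM in control, so no library went against its label. Of 10 neuroendocrine markers all were detected in every genotype, with NEUROD1 at 198, 190.2 and 195 CPM in control. One library stood apart for a few members: ATG7 KO replicate 3 held 51 genes of at least 1 CPM that were at least 2-fold above both other libraries of its genotype, against 22 to 42 such genes in the other libraries. SOX2 and POU5F1 were among the 51, and results that rest on this library are given with and without it.

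The bases before the start site are shown for 3 members with large changes between the genotypes (POU3F1, POU3F3 and PAX5) and for 3 whose window holds the octamer ATGCAAAT that POU factors read (LHX6, NKX6-1 and SOX12). The windows are the 250 bases before a start site in RefSeq's table for GRCh38.p14, written 5′ to 3′ on the gene's strand, and capitals mark the octamer. They lie at chr1:38046794-38047043 (minus strand) for POU3F1, chr2:104853865-104854114 (plus strand) for POU3F3, chr9:37034269-37034518 (minus strand) for PAX5, chr9:122228434-122228683 (minus strand) for 1 of the 3 start sites of LHX6, chr4:84499293-84499542 (minus strand) for NKX6-1 and chr20:325302-325551 (plus strand) for SOX12. RefSeq's start sites can lie apart from the gene ends of GENCODE 29 given below, as for POU3F3.
POU3F1: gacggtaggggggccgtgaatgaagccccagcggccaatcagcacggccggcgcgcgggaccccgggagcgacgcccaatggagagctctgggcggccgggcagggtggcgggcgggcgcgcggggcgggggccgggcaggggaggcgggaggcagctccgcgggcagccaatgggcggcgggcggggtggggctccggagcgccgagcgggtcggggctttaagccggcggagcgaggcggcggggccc
POU3F3: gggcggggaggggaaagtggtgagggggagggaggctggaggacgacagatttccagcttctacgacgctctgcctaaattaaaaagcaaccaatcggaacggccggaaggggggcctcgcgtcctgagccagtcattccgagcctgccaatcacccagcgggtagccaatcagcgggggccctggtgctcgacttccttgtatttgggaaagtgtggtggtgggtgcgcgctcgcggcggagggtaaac
PAX5: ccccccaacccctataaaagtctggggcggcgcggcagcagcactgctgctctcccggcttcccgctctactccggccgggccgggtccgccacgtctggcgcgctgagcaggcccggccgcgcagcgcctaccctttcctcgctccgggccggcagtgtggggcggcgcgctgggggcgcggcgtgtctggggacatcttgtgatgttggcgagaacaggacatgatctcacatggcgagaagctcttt
LHX6: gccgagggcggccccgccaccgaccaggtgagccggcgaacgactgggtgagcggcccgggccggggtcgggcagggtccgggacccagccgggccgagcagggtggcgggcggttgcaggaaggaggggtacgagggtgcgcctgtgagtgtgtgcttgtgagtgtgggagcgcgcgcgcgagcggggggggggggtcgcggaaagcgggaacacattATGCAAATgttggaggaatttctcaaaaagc
NKX6-1: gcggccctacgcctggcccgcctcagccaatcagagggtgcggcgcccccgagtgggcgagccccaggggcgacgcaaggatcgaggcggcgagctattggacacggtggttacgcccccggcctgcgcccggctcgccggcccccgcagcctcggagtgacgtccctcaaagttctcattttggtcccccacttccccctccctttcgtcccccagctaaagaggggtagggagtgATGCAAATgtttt
SOX12: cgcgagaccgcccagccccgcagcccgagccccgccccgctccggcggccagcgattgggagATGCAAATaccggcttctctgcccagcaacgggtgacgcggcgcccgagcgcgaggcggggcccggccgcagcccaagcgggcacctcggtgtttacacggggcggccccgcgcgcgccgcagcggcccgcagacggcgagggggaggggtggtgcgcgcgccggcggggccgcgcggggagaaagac

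The table held 73 windows of 47 members, of which 54 windows belong to 33 members that were tested for expression. The windows of tested members had a median GC content of 63.0% and a median of 16 CpG dinucleotides, against 58.0% and 11 over all 35116 windows. Searched on both strands, ATGCAAAT was found in 4 of the 54 windows (7.41%) and in 1.63% of all windows. The fourth window belongs to 1 of the start sites of POU2F1. The HMG-box sequences ACAATG and ACAAAG were found in 14.8% and 13.0% of the 54 windows, against 9.29% and 13.7% of all windows. TAATTA, read by LIM homeodomains, was in 1.85% against 4.35%, and the NKX sequences CACTTGA and CACTTAA in 0 and 1.85% against 2.06% and 2.14%. The octamer starts 31, 13 and 188 bases before the start site in LHX6, NKX6-1 and SOX12. LHX6, NKX6-1 and SOX12 were each lower in ATG7 KO than in control and higher in ATG7/SQSTM1 KO than in ATG7 KO, as described below for each, and so were POU3F1, POU3F3 and PAX5, whose windows hold no octamer. POU2F1, which also has an octamer window, was not called in ATG7 KO against control (log2 change −0.06, edgeR adjusted p = 0.287). Its change between both knockouts was small (0.11). These matches describe letters only and are no measure of binding.

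DMS273 expressed a broad set of these factors. Of the 77 rows, 47 passed the count filter and were tested, namely 14 SOX, 9 POU, 8 NKX, 6 SIX-family, 5 PAX and 5 LHX genes. Per kilobase of exon, the highest mean control level was that of POU3F1, at 77.8 CPM per kilobase. Next among the genes shown stood SOX4 at 36.7, SOX12 at 29.8, SIX2 at 13.4, POU3F3 at 10.9, SIX5 at 6.997 and SOX18 at 6.63 CPM per kilobase. In ATG7/SQSTM1 KO POU3F1 again led, with 94.3 CPM per kilobase. In ATG7 KO it stood at 27.5 CPM per kilobase, beside SOX4 at 27.6 CPM per kilobase. Summed over all members, the level was 1066, 1048 and 1035 CPM in ATG7/SQSTM1 KO, 687.4, 685.3 and 691.6 CPM in ATG7 KO and 1010, 1011 and 1010 CPM in control. The 3 genotypes did not overlap in this sum, which weighs the abundant members most. SOX4, POU3F1 and SOX12 averaged 214.5, 169.8 and 138.2 CPM in control and 161.7, 60.05 and 102.6 CPM in ATG7 KO.

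**Figure D1:**
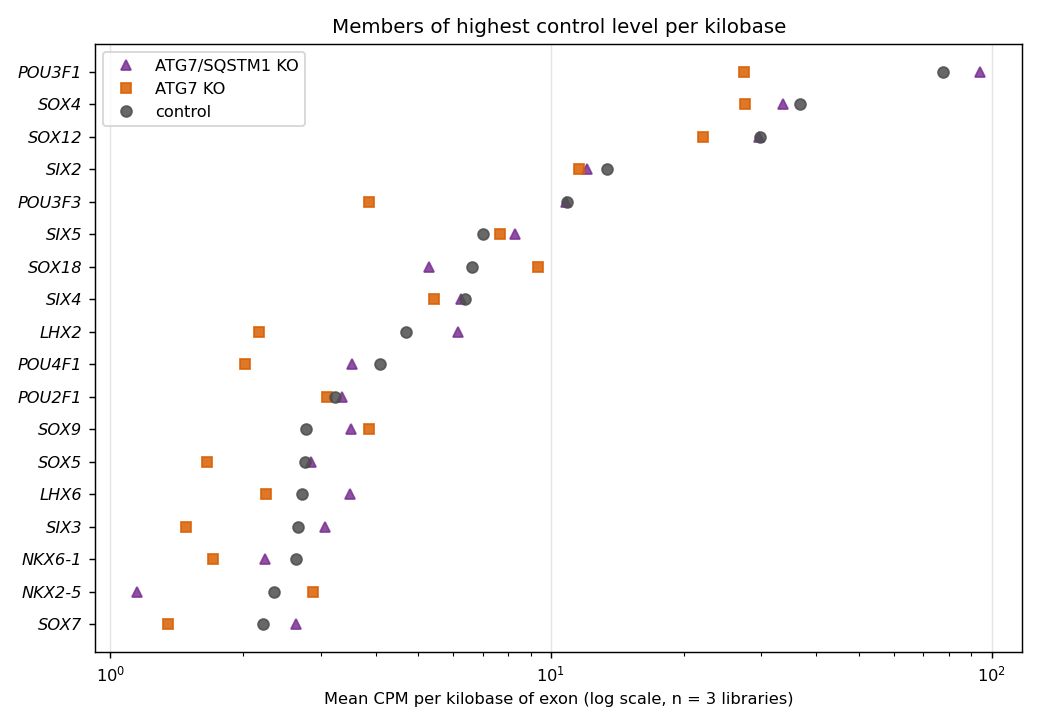
Mean CPM per kilobase of exon (log axis) of 18 members among the 20 with the highest control level, with triangles for ATG7/SQSTM1 KO, squares for ATG7 KO and circles for control (n = 3 libraries each). POU3F1 stands at 94.3 CPM per kilobase in ATG7/SQSTM1 KO, 27.5 in ATG7 KO and 77.8 in control, while SOX18 and NKX2-5 are lowest in ATG7/SQSTM1 KO.

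The members were mostly lower in ATG7 KO than in control and mostly higher in ATG7/SQSTM1 KO than in ATG7 KO. Against control, edgeR's quasi-likelihood test (adjusted p under 0.05 over all 18847 genes tested) called 5 of the 47 tested members higher in ATG7 KO (10.6%, where 28.4% of all genes were called higher) and 27 lower (57.4%, against 28.3% of all genes), or 32 in all, where 56.7% of all genes were called. The members' median log2 change was −0.42, and that of all genes −0.02. Of the 47 tested, 11 were called at least 2-fold lower, where 8.28% of all genes were. Only 1 of the 47, POU5F1, was called at least 2-fold higher, where 4.22% of all genes were. Between ATG7/SQSTM1 KO and ATG7 KO, 26 members were higher (55.3%, against 30.5% of all genes) and 4 lower (8.51%, against 29.9%), with a median of 0.42 for the members and 0.02 for all genes. Increases of at least 2-fold were called in 11 members and decreases of that size in 2, against 9.07% and 3.86% of all genes. In all, 30 members were called here, where 60.5% of all genes were. Between ATG7/SQSTM1 KO and control, 10 members were higher and 10 lower (21.3% each), close to the 19% and 19.6% of all genes called in either direction, and the median was 0.01 for the members and −0.01 for all genes. Of the 20, 4 were increases and 3 decreases of at least 2-fold, as were 2.2% and 1.66% of all genes, and 38.6% of all genes were called. The libraries of ATG7 KO and control did not overlap for 34 of the 47 members (72.3%, against 62.4% of all genes), those of ATG7/SQSTM1 KO and ATG7 KO for 33 (70.2%, against 65.9%) and those of ATG7/SQSTM1 KO and control for 29 (61.7%, against 48.8%). Without ATG7 KO replicate 3, ATG7 KO against control gave 3 members called higher and 28 lower, and ATG7/SQSTM1 KO against ATG7 KO gave 26 higher and 3 lower. The count filter asked for 0.324 CPM or more in 3 libraries, and 5 of the 47 members would have failed it without the libraries of 1 genotype: POU3F2 without ATG7/SQSTM1 KO, POU5F1 without ATG7 KO, SOX1 and SOX21 without control, and LHX8 without either ATG7/SQSTM1 KO or control. For the other 42 members the calls were 24 higher and 3 lower in ATG7/SQSTM1 KO against ATG7 KO, 9 and 9 in ATG7/SQSTM1 KO against control and 4 and 25 in ATG7 KO against control. Changes of at least 2-fold were then 9 higher and 1 lower, 3 and 2, and 0 and 9 in these comparisons. These counts were added after the data were seen. In bulk RNA, fewer cells of a kind and less RNA per cell cannot be told apart.

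**Figure D2:**
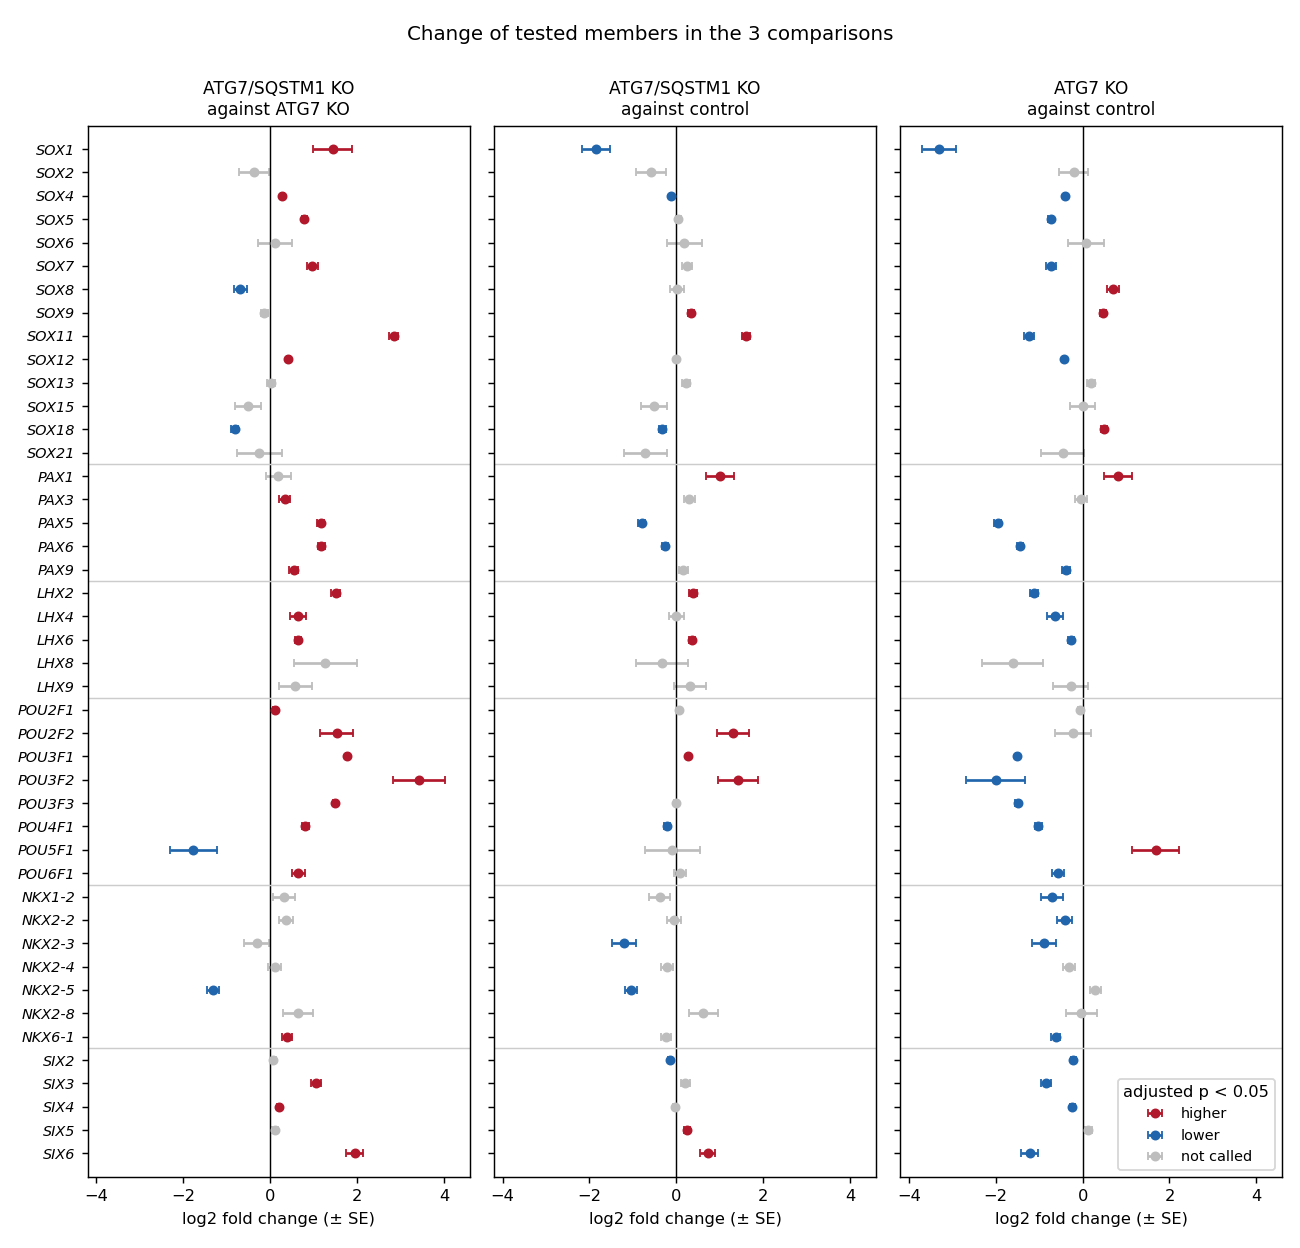
Log2 fold change with its standard error for 44 of the 47 tested members (rows, grouped by family) in ATG7/SQSTM1 KO against ATG7 KO, ATG7/SQSTM1 KO against control and ATG7 KO against control. Red points were called higher, blue points lower and grey points not called (edgeR adjusted p under 0.05): of those drawn, 24 are red and 4 blue in the left panel, 10 and 9 in the middle one, 5 and 25 in the right one.

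By family, the counts of members called higher and lower in ATG7 KO against control were 1 and 6 of 9 POU genes, 0 and 5 of 6 SIX-family genes, 0 and 3 of 5 LHX genes, 1 and 3 of 5 PAX genes, 0 and 4 of 8 NKX genes, and 3 and 6 of 14 SOX genes. In ATG7/SQSTM1 KO against ATG7 KO they were 8 and 1, 4 and 0, 3 and 0, 4 and 0, 1 and 1, and 6 and 2 in the same order. Of all genes, 28.4% were called higher and 28.3% lower in the former comparison, and 30.5% and 29.9% in the latter. Differences between families were not tested. Most of the 10 markers of neuroendocrine cells moved alongside. The summed level of all 10, each detected, was 462 to 476 CPM in ATG7/SQSTM1 KO, 168 to 172 CPM in ATG7 KO and 447 to 456 CPM in control. Of the 10, 9 were called lower in ATG7 KO than in control, where 28.3% of all genes were. SCG2 went the other way, higher in ATG7 KO than in control (log2 change 0.54) and lower in ATG7/SQSTM1 KO than in ATG7 KO (−0.90). The 8 fibroblast markers, all detected, summed to 334 to 355 CPM in ATG7/SQSTM1 KO, 665 to 704 CPM in ATG7 KO and 186 to 201 CPM in control. Of these, 5 were called higher in ATG7 KO than in control (28.4% of all genes were), while PDGFRA, PDGFRB and FAP were not called. Between both knockouts, 5 were lower in ATG7/SQSTM1 KO (29.9% of all genes) and 2, DCN and PDGFRA, were higher (30.5%). The 5 epithelial markers, all detected, summed to 128 to 142 CPM in ATG7/SQSTM1 KO, 178 to 184 CPM in ATG7 KO and 42.2 to 42.7 CPM in control. In each knockout 4 of the 5 were called higher than in control (28.4% of all genes in ATG7 KO, 19% in ATG7/SQSTM1 KO). The fifth, KRT19, was not called in ATG7 KO and was lower in ATG7/SQSTM1 KO than in control. Of 6 blood markers 3 were detected, at a sum of 1.68 to 2.48 CPM in ATG7/SQSTM1 KO, 6.67 to 7.68 CPM in ATG7 KO and 2.05 to 2.69 CPM in control, with CD3E, HBB and LYZ at 0 in every library. The 4 endothelial markers summed to 0.510 to 1.05 CPM in ATG7/SQSTM1 KO, 2.15 to 3.12 CPM in ATG7 KO and 1.22 to 1.48 CPM in control. All these markers were read in a single cell line, and their relation to the members' changes was not tested.

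The POU family held the member with the highest level per kilobase, POU3F1, a class III gene. Class III genes act in neural progenitors and in myelinating glia. Of the 3 that were tested, POU3F1 and POU3F3 were lower in ATG7 KO than in control and higher in ATG7/SQSTM1 KO than in ATG7 KO, and the third, POU3F2, passed the count filter only with the ATG7/SQSTM1 KO libraries, in which it was highest. POU3F1 (Oct-6; ENSG00000185668; chr1:38044611-38046794, minus strand, a gene with a single exon block), known for its role in Schwann cell myelination, had 214, 201 and 202 CPM in ATG7/SQSTM1 KO, 60.5, 57.6 and 62.0 CPM in ATG7 KO and 166, 173 and 170.4 CPM in control. The genotypes did not overlap, and the ATG7/SQSTM1 KO libraries stood above all others. The log2 change of POU3F1 was −1.50 (SE 0.036, edgeR adjusted p = 1.21e-18) in ATG7 KO against control, 1.78 (SE 0.036, edgeR adjusted p = 8.54e-20) in ATG7/SQSTM1 KO against ATG7 KO and 0.28 (SE 0.034, edgeR adjusted p = 9.96e-07) in ATG7/SQSTM1 KO against control. POU3F3 (Brn-1; ENSG00000198914; chr2:104855511-104858574, plus strand), a factor of cortical and kidney development, had 34.3, 33.0 and 32.4 CPM in ATG7/SQSTM1 KO, 11.5, 12.1 and 11.8 CPM in ATG7 KO and 33.0, 33.3 and 33.8 CPM in control. ATG7 KO lay apart from both other genotypes, which overlapped. Its log2 change was −1.50 (SE 0.054, edgeR adjusted p = 1.22e-15) against control and 1.49 (SE 0.054, edgeR adjusted p = 1.39e-15) between both knockouts, and no difference from control was called in ATG7/SQSTM1 KO (edgeR adjusted p = 0.946).

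POU3F2 (Brn-2), a neuronal factor used in reprogramming fibroblasts, was near the floor of detection. It had 25, 24 and 22 counts in the ATG7/SQSTM1 KO libraries, 0, 3 and 3 in the ATG7 KO libraries and 14, 3 and 9 in the control libraries, or 0.729, 0.824 and 0.701 CPM in ATG7/SQSTM1 KO, 0, 0.101 and 0.0957 CPM in ATG7 KO and 0.427, 0.103 and 0.288 CPM in control. The ATG7/SQSTM1 KO libraries were above the rest, and ATG7 KO and control replicate 2 had 3 counts or fewer, so that the fitted changes depend on the prior count. With no count filter its log2 changes were −1.99 (edgeR adjusted p = 0.0137) in ATG7 KO against control, 3.42 (edgeR adjusted p = 2.70e-06) in ATG7/SQSTM1 KO against ATG7 KO and 1.43 (edgeR adjusted p = 0.0176) in ATG7/SQSTM1 KO against control. With the filter, the calls against control rest on single libraries. That of ATG7 KO was lost without control replicate 1 (−1.51, adjusted p = 0.117 by edgeR) or ATG7 KO replicate 1 (−1.45, adjusted p = 0.0728 by edgeR). That of ATG7/SQSTM1 KO was lost without control replicate 2, control replicate 3 or ATG7/SQSTM1 KO replicate 2 (1.06 to 1.45, edgeR adjusted p 0.0558 to 0.102).

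POU4F1 (Brn-3a; ENSG00000152192; chr13:78598362-78603560, minus strand), a factor of sensory neurons, had 15.7, 16.9 and 15.7 CPM in ATG7/SQSTM1 KO, 8.46, 9.93 and 9.19 CPM in ATG7 KO and 18.4, 17.6 and 19.9 CPM in control. The 3 genotypes did not overlap, with ATG7 KO lowest. POU4F1 was lower in ATG7 KO than in control (log2 change −1.02, SE 0.077, edgeR adjusted p = 2.71e-10) and higher in ATG7/SQSTM1 KO than in ATG7 KO (log2 change 0.81, SE 0.078, edgeR adjusted p = 1.06e-08). It was also called lower in ATG7/SQSTM1 KO than in control (log2 change −0.21, SE 0.074, edgeR adjusted p = 0.0255), a call that was lost with DESeq2 and without control replicate 1, control replicate 3, ATG7/SQSTM1 KO replicate 1 or ATG7/SQSTM1 KO replicate 3 (−0.16 to −0.22, edgeR adjusted p 0.0538 to 0.139). An antisense gene, AL445209.1, shares 27.7% of the exon bases of POU4F1, and it received 86 counts in all libraries together against 4090 for POU4F1.

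POU6F1, a class VI gene expressed in brain, had 4.61, 4.57 and 3.82 CPM in ATG7/SQSTM1 KO, 2.63, 2.58 and 3.06 CPM in ATG7 KO and 4.12, 4.34 and 3.84 CPM in control. ATG7 KO was below both other genotypes, which overlapped, and POU6F1 was lower in ATG7 KO than in control (log2 change −0.57, edgeR adjusted p = 0.00177) and higher in ATG7/SQSTM1 KO than in ATG7 KO (log2 change 0.65, edgeR adjusted p = 4.64e-04).

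Neither of the 2 class II genes was called in ATG7 KO against control, and both were called higher in ATG7/SQSTM1 KO than in ATG7 KO. POU2F1 (Oct-1), the ubiquitous octamer-binding factor, had 54.8, 54.9 and 51.9 CPM in ATG7/SQSTM1 KO, 47.0, 51.6 and 51.5 CPM in ATG7 KO and 50.4, 53.8 and 51.9 CPM in control, all within a narrow range, and ATG7 KO and control overlapped. Its one call, 0.11 on the log2 scale between both knockouts (edgeR adjusted p = 0.0411), was lost without ATG7 KO replicate 1, ATG7/SQSTM1 KO replicate 1 or ATG7/SQSTM1 KO replicate 2 (0.06 to 0.09, edgeR adjusted p 0.151 to 0.265) and with DESeq2, relative log expression size factors, no count filter or the 6 libraries compared alone. POU2F2 (Oct-2), a factor of B cells and neurons, had 1.34, 1.10 and 1.02 CPM in ATG7/SQSTM1 KO, 0.580, 0.134 and 0.479 CPM in ATG7 KO and 0.336, 0.517 and 0.544 CPM in control. The ATG7/SQSTM1 KO libraries stood above all others, and the other genotypes overlapped. POU2F2 was higher in ATG7/SQSTM1 KO than in control (log2 change 1.31, SE 0.36, edgeR adjusted p = 0.0065) and than in ATG7 KO (log2 change 1.53, SE 0.37, edgeR adjusted p = 0.00126).

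**Figure D3:**
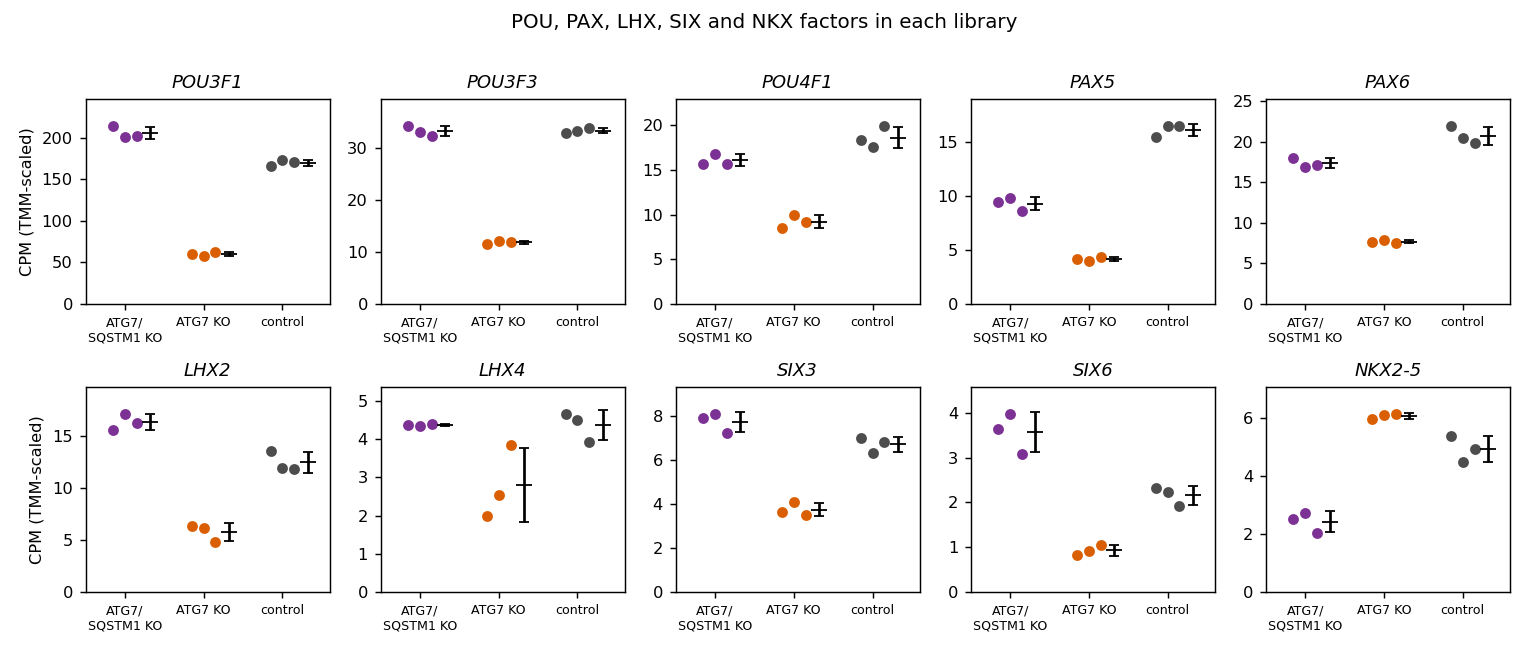
TMM-scaled CPM of 10 POU, PAX, LHX, NKX and SIX-family genes in every library (points), with the mean and SD of each genotype in black (n = 3), in ATG7/SQSTM1 KO, ATG7 KO and control from left to right. In 9 panels the ATG7 KO libraries are lowest (for POU3F1, 57.6 to 62.0 CPM), whereas NKX2-5 is lowest in ATG7/SQSTM1 KO.

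Of the PAX genes, PAX5 and PAX6 were the ones at least 2-fold lower in ATG7 KO than in control. PAX5 (BSAP; ENSG00000196092; chr9:36833275-37034185, minus strand), the B-cell commitment factor that also acts in midbrain patterning, had 9.45, 9.82 and 8.63 CPM in ATG7/SQSTM1 KO, 4.13, 3.99 and 4.37 CPM in ATG7 KO and 15.5, 16.5 and 16.5 CPM in control. The genotypes were separate, with control highest and ATG7 KO lowest. PAX5 changed by −1.96 (SE 0.088, edgeR adjusted p = 4.81e-14) in ATG7 KO against control, −0.80 (SE 0.082, edgeR adjusted p = 9.35e-08) in ATG7/SQSTM1 KO against control and 1.16 (SE 0.090, edgeR adjusted p = 3.58e-10) in ATG7/SQSTM1 KO against ATG7 KO. PAX6 (ENSG00000007372; chr11:31784779-31818062, minus strand), a master factor of eye and pancreatic islet development, had 18.0, 16.9 and 17.1 CPM in ATG7/SQSTM1 KO, 7.61, 7.85 and 7.50 CPM in ATG7 KO and 21.9, 20.5 and 19.8 CPM in control. Here too control was highest and ATG7 KO lowest without overlap. Its log2 changes in these comparisons were −1.44 (SE 0.071, edgeR adjusted p = 2.25e-13), −0.26 (SE 0.066, edgeR adjusted p = 0.00354) and 1.18 (SE 0.072, edgeR adjusted p = 6.21e-12). The gene ELP4, on the opposite strand, shares 25.2% of the exon bases of PAX6 in GENCODE 29, and since the strand setting of the counting is not given, reads from the shared bases cannot be assigned.

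PAX9, which acts in tooth and palate formation, was lower in ATG7 KO than in control (log2 change −0.38, SE 0.10, edgeR adjusted p = 0.00258) and higher in ATG7/SQSTM1 KO than in ATG7 KO (log2 change 0.54, SE 0.099, edgeR adjusted p = 6.83e-05). It averaged 8.60 ± 0.29 CPM in ATG7/SQSTM1 KO, 5.90 ± 0.49 CPM in ATG7 KO and 7.70 ± 0.42 CPM in control (SD, n = 3 each). PAX3, a neural crest and muscle factor, averaged 6.15 ± 0.27 CPM in ATG7/SQSTM1 KO, 4.88 ± 0.93 CPM in ATG7 KO and 5.00 ± 0.47 CPM in control and was called between both knockouts (0.33, edgeR adjusted p = 0.0348), a call lost without any 1 of 5 of the 6 libraries (0.22 to 0.35, edgeR adjusted p 0.0574 to 0.193), the exception being ATG7 KO replicate 3, and lost with DESeq2 or without the count filter. PAX1, a sclerotome factor, was low, with 0.875, 0.789 and 1.05 CPM in ATG7/SQSTM1 KO, 0.682, 0.805 and 0.893 CPM in ATG7 KO and 0.519, 0.276 and 0.544 CPM in control. Control was below both knockouts, which overlapped. PAX1 was called higher in both ATG7/SQSTM1 KO (log2 change 1.00, edgeR adjusted p = 0.0151) and ATG7 KO (log2 change 0.82, edgeR adjusted p = 0.0358) than in control. The first of these calls was lost without control replicate 2 or ATG7/SQSTM1 KO replicate 3 (0.77 to 0.88, edgeR adjusted p 0.0691 to 0.0779), and the second without control replicate 2, ATG7 KO replicate 2 or ATG7 KO replicate 3 (0.58 to 0.81, edgeR adjusted p 0.0682 to 0.152), with DESeq2 and without the count filter. PAX1, PAX3 and PAX9 fall outside the rule for named genes and were picked with their values in view.

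Of the LHX genes tested, LHX2, LHX4 and LHX6 were lower in ATG7 KO than in control and higher in ATG7/SQSTM1 KO than in ATG7 KO. LHX2 (ENSG00000106689; chr9:124001670-124033301, plus strand), a selector of cortical and hair follicle identity, had 15.6, 17.2 and 16.3 CPM in ATG7/SQSTM1 KO, 6.38, 6.10 and 4.82 CPM in ATG7 KO and 13.6, 12.0 and 11.8 CPM in control. The genotypes did not overlap, and ATG7/SQSTM1 KO was highest. LHX2 changed by −1.11 (SE 0.098, edgeR adjusted p = 3.10e-09) in ATG7 KO against control, 1.505 (SE 0.097, edgeR adjusted p = 1.65e-11) between both knockouts and 0.39 (SE 0.090, edgeR adjusted p = 0.00159) in ATG7/SQSTM1 KO against control. LHX4, which acts in pituitary and motor neuron development, had 4.37, 4.36 and 4.40 CPM in ATG7/SQSTM1 KO, 1.98, 2.55 and 3.86 CPM in ATG7 KO and 4.67, 4.51 and 3.94 CPM in control. Each ATG7 KO library was below the libraries of both other genotypes, but replicate 3 lay close under them. LHX4 was lower in ATG7 KO than in control (log2 change −0.64, SE 0.18, edgeR adjusted p = 0.00526) and higher in ATG7/SQSTM1 KO than in ATG7 KO (log2 change 0.64, SE 0.18, edgeR adjusted p = 0.00472). It shares 30.8% of its exon bases with ACBD6 on the opposite strand. LHX6, a factor of cortical interneurons whose octamer is shown above, averaged 20.2 ± 1.2 CPM in ATG7/SQSTM1 KO, 13.0 ± 1.0 CPM in ATG7 KO and 15.7 ± 0.40 CPM in control (SD, n = 3 each). The 3 genotypes were separate, and LHX6 was called lower in ATG7 KO than in control (log2 change −0.27, edgeR adjusted p = 0.00325), and higher in ATG7/SQSTM1 KO than in control (log2 change 0.36, edgeR adjusted p = 3.19e-04) or ATG7 KO (log2 change 0.64, edgeR adjusted p = 1.27e-07). LHX6 was picked with its values in view. LHX8 and LHX9, at under 1 CPM in every library, were not called in any comparison. Without ATG7 KO replicate 3 LHX8 was called lower in ATG7 KO than in control (−2.27, adjusted p = 0.0439 by edgeR). ATG7 KO replicates 1 and 2 then held 0 and 4 counts, near the floor of detection. LHX8 would also have failed the count filter without the control libraries, so that call is not independent of the filter. With no filter and all libraries the log2 change was −1.60 (edgeR adjusted p = 0.074).

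All 6 SIX-family genes were expressed, and 5 were lower in ATG7 KO than in control (28.3% of all genes were). SIX6 (ENSG00000184302; chr14:60508951-60512850, plus strand), an eye and pituitary factor, had 3.64, 3.98 and 3.09 CPM in ATG7/SQSTM1 KO, 0.819, 0.905 and 1.05 CPM in ATG7 KO and 2.32, 2.24 and 1.92 CPM in control. ATG7/SQSTM1 KO was highest and ATG7 KO lowest, with no overlap. SIX6 changed by −1.22 (SE 0.20, edgeR adjusted p = 1.63e-05) in ATG7 KO against control, 1.94 (SE 0.19, edgeR adjusted p = 1.29e-08) in ATG7/SQSTM1 KO against ATG7 KO and 0.72 (SE 0.17, edgeR adjusted p = 0.00207) in ATG7/SQSTM1 KO against control. SIX3 (ENSG00000138083; chr2:44941898-44946077, plus strand), a forebrain and eye factor, had 7.90, 8.10 and 7.23 CPM in ATG7/SQSTM1 KO, 3.62, 4.09 and 3.51 CPM in ATG7 KO and 6.99, 6.34 and 6.82 CPM in control, with ATG7 KO below the rest. Its log2 change was −0.85 (SE 0.11, edgeR adjusted p = 1.40e-06) in ATG7 KO against control and 1.05 (SE 0.11, edgeR adjusted p = 4.66e-08) between both knockouts.

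SIX2, SIX4 and SIX5 moved by less than SIX3 and SIX6 in ATG7 KO against control. SIX2, a factor of nephron progenitors, had 26.2, 27.6 and 26.2 CPM in ATG7/SQSTM1 KO, 27.0, 25.1 and 24.3 CPM in ATG7 KO and 31.2, 28.2 and 29.2 CPM in control. The knockouts overlapped and both stood below control. SIX2 was called lower in both ATG7/SQSTM1 KO (log2 change −0.15, edgeR adjusted p = 0.0397) and ATG7 KO (log2 change −0.22, edgeR adjusted p = 0.00244) than in control, the first call being lost without control replicate 1, control replicate 3, ATG7/SQSTM1 KO replicate 1 or ATG7/SQSTM1 KO replicate 3 (−0.10 to −0.16, edgeR adjusted p 0.0644 to 0.22), with DESeq2 and without the count filter. SIX4, expressed in muscle and neurons, averaged 41.6 ± 0.83 CPM in ATG7/SQSTM1 KO, 36.1 ± 1.4 CPM in ATG7 KO and 42.4 ± 2.3 CPM in control (SD, n = 3 each) and was called lower in ATG7 KO than in control (log2 change −0.23, edgeR adjusted p = 2.28e-04) and higher in ATG7/SQSTM1 KO than in ATG7 KO (log2 change 0.21, edgeR adjusted p = 6.65e-04). SIX4 was picked with its values in view. SIX5, a gene beside DMPK, had 29.9, 30.7 and 28.0 CPM in ATG7/SQSTM1 KO, 26.5, 26.2 and 29.1 CPM in ATG7 KO and 21.4, 26.8 and 26.4 CPM in control, and ATG7 KO overlapped both other genotypes. It was called higher in ATG7/SQSTM1 KO than in control (log2 change 0.25, edgeR adjusted p = 0.0142), a call lost without control replicate 1, ATG7/SQSTM1 KO replicate 1 or ATG7/SQSTM1 KO replicate 2 (0.16 to 0.24, edgeR adjusted p 0.0544 to 0.0651). AC074212.1, on the opposite strand, shares 56.8% of the exon bases of SIX5.

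In the NKX family 4 of 8 genes were lower in ATG7 KO than in control, where 28.3% of all genes were. In ATG7/SQSTM1 KO against control 2 (25%), NKX2-3 and NKX2-5, were lower, near the 19.6% of all genes. NKX2-5 (ENSG00000183072; chr5:173232109-173235357, minus strand), the heart field factor, had 2.51, 2.71 and 2.01 CPM in ATG7/SQSTM1 KO, 5.94, 6.07 and 6.13 CPM in ATG7 KO and 5.37, 4.48 and 4.93 CPM in control. The ATG7/SQSTM1 KO libraries were below all others, and ATG7 KO stood above control. NKX2-5 changed by −1.33 (SE 0.14, edgeR adjusted p = 3.06e-08) in ATG7/SQSTM1 KO against ATG7 KO and −1.03 (SE 0.14, edgeR adjusted p = 3.84e-06) against control. Between ATG7 KO and control it was not called by edgeR (adjusted p = 0.0601), but it was called without control replicate 1 (0.37, adjusted p = 0.0467 by edgeR), with relative log expression size factors and with the 6 libraries compared alone. NKX2-3, an intestinal and splenic factor, had 0.787, 0.412 and 0.924 CPM in ATG7/SQSTM1 KO, 0.921, 1.01 and 0.734 CPM in ATG7 KO and 1.71, 1.45 and 1.76 CPM in control. Both knockouts were below control and overlapped each other. NKX2-3 was lower in both ATG7/SQSTM1 KO (log2 change −1.20, SE 0.27, edgeR adjusted p = 0.00132) and ATG7 KO (log2 change −0.89, SE 0.27, edgeR adjusted p = 0.0075) than in control.

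NKX6-1, a factor of islet beta cells and motor neuron progenitors whose octamer is shown above, had 6.85, 7.83 and 6.12 CPM in ATG7/SQSTM1 KO, 5.32, 4.80 and 5.74 CPM in ATG7 KO and 8.64, 7.86 and 7.94 CPM in control. ATG7 KO was lowest and control highest, with no overlap. NKX6-1 was lower in ATG7 KO than in control (log2 change −0.62, SE 0.11, edgeR adjusted p = 7.24e-05) and higher in ATG7/SQSTM1 KO than in ATG7 KO (log2 change 0.39, SE 0.11, edgeR adjusted p = 0.00564), the second call being lost without ATG7/SQSTM1 KO replicate 2 (0.29, adjusted p = 0.0513 by edgeR). Without that library NKX6-1 was called lower in ATG7/SQSTM1 KO than in control (−0.33, adjusted p = 0.0398 by edgeR). NKX2-2, which acts in islets and the ventral neural tube, averaged 3.37 ± 0.37 CPM in ATG7/SQSTM1 KO, 2.62 ± 0.27 CPM in ATG7 KO and 3.49 ± 0.61 CPM in control, and NKX1-2 averaged 1.28 ± 0.26 CPM in ATG7/SQSTM1 KO, 1.03 ± 0.17 CPM in ATG7 KO and 1.68 ± 0.43 CPM in control (SD, n = 3 each). Both were called lower in ATG7 KO than in control, NKX2-2 with a log2 change of −0.42 (edgeR adjusted p = 0.0376) and NKX1-2 with one of −0.70 (edgeR adjusted p = 0.0205). The NKX2-2 call was lost without control replicate 1, control replicate 3, ATG7 KO replicate 2 or ATG7 KO replicate 3 (−0.27 to −0.43, edgeR adjusted p 0.0639 to 0.23), and the NKX1-2 call without control replicate 2, ATG7 KO replicate 2 or ATG7 KO replicate 3 (−0.48 to −0.63, edgeR adjusted p 0.0696 to 0.142), and DESeq2 called neither. The NKX2-2 call was also lost without the count filter (−0.40, edgeR adjusted p = 0.0773). NKX2-4 and NKX2-8 were not called in any comparison and averaged 4.54 ± 0.18 and 0.589 ± 0.25 CPM in control. Without ATG7 KO replicate 2, edgeR called NKX2-4 lower (−0.38, adjusted p = 0.044) in ATG7 KO than in control. With all libraries scaled by library totals alone, edgeR also called it lower there (−0.35, adjusted p = 0.0337). The NKX genes other than NKX2-3 and NKX2-5 were picked with their values in view.

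The SOX group C genes act in neural progenitors and immature neurons. SOX4, SOX11 and SOX12 were all lower in ATG7 KO than in control and higher in ATG7/SQSTM1 KO than in ATG7 KO, whereas in ATG7/SQSTM1 KO against control SOX11 was higher, SOX4 was lower and SOX12 was not called. SOX11 (ENSG00000176887; chr2:5692667-5701385, plus strand) had 31.4, 30.8 and 31.0 CPM in ATG7/SQSTM1 KO, 3.79, 3.66 and 5.46 CPM in ATG7 KO and 10.1, 10.3 and 10.1 CPM in control. All 3 ATG7/SQSTM1 KO libraries stood far above control, and the ATG7 KO libraries were lowest. SOX11 changed by −1.24 (SE 0.11, edgeR adjusted p = 1.66e-08) in ATG7 KO against control, 1.61 (SE 0.093, edgeR adjusted p = 1.91e-10) in ATG7/SQSTM1 KO against control and 2.85 (SE 0.10, edgeR adjusted p = 4.20e-14) in ATG7/SQSTM1 KO against ATG7 KO, a 7.20-fold difference. SOX4 (ENSG00000124766; chr6:21592768-21598619, plus strand), the most abundant SOX gene per kilobase in control, had 198, 193 and 199 CPM in ATG7/SQSTM1 KO, 163, 165 and 157 CPM in ATG7 KO and 214, 214 and 216 CPM in control. The genotypes were separate, with control highest. Its changes were smaller, at −0.41 (SE 0.028, edgeR adjusted p = 4.93e-11), −0.13 (SE 0.028, edgeR adjusted p = 9.53e-04) and 0.28 (SE 0.028, edgeR adjusted p = 1.53e-08) in the same comparisons. SOX12 (ENSG00000177732; chr20:325595-330224, plus strand), whose octamer is shown above, had 141, 134 and 137 CPM in ATG7/SQSTM1 KO, 106, 102 and 99.9 CPM in ATG7 KO and 140.5, 137 and 137 CPM in control. ATG7 KO was below the other genotypes, which overlapped. SOX12 changed by −0.43 (SE 0.032, edgeR adjusted p = 2.21e-10) in ATG7 KO against control and 0.42 (SE 0.032, edgeR adjusted p = 2.78e-10) between both knockouts.

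SOX1 (group B1; ENSG00000182968; chr13:112067647-112070488, plus strand), a marker of neural progenitors, was low in both knockouts. It had 16, 11 and 8 counts in the ATG7/SQSTM1 KO libraries, 6, 3 and 3 in the ATG7 KO libraries and 44, 42 and 39 in the control libraries, or 0.466, 0.378 and 0.255 CPM in ATG7/SQSTM1 KO, 0.205, 0.101 and 0.0957 CPM in ATG7 KO and 1.34, 1.45 and 1.249 CPM in control. The genotypes did not overlap, and the ATG7 KO libraries lay at about the floor of 3 counts. SOX1 passed the count filter only with the control libraries, in which it was highest, so its changes are given from the fit with no filter. They were −3.29 (edgeR adjusted p = 2.51e-09) in ATG7 KO against control, −1.85 (edgeR adjusted p = 2.79e-05) in ATG7/SQSTM1 KO against control and 1.44 (edgeR adjusted p = 0.01) in ATG7/SQSTM1 KO against ATG7 KO on the log2 scale. SOX5 (ENSG00000134532; chr12:23529500-24562544, minus strand), a group D factor of cartilage and cortical neurons, had 28.1, 31.8 and 29.5 CPM in ATG7/SQSTM1 KO, 17.2, 18.2 and 16.5 CPM in ATG7 KO and 29.1, 29.3 and 28.2 CPM in control. Only ATG7 KO stood apart, below the rest. It changed by −0.74 (SE 0.059, edgeR adjusted p = 7.36e-10) against control and 0.78 (SE 0.059, edgeR adjusted p = 2.27e-10) between both knockouts. The other group D genes, SOX6 and SOX13, were not called in any of the 3 comparisons. Without control replicate 3, whose SOX13 level was above that of both other control libraries, edgeR called SOX13 higher in both ATG7/SQSTM1 KO (0.34, adjusted p = 0.00773) and ATG7 KO (0.31, adjusted p = 0.00749) than in control. SOX15, the group G gene, was not called in these comparisons either, and SOX6 and SOX15 stayed under 1 CPM in every library. SOX6, SOX13 and SOX15 were picked with their values in view.

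Groups E and F held the SOX genes that were higher in ATG7 KO. SOX8 (group E; ENSG00000005513; chr16:981808-986979, plus strand), a factor of glia and testis, had 2.77, 3.88 and 3.82 CPM in ATG7/SQSTM1 KO, 6.04, 5.37 and 5.42 CPM in ATG7 KO and 3.02, 3.65 and 3.68 CPM in control. ATG7 KO stood above the other genotypes, which overlapped. SOX8 changed by 0.70 (SE 0.15, edgeR adjusted p = 3.27e-04) in ATG7 KO against control and −0.69 (SE 0.15, edgeR adjusted p = 3.47e-04) in ATG7/SQSTM1 KO against ATG7 KO. SOX9, the group E factor of cartilage, testis and many epithelial progenitors, had 14.1, 14.2 and 13.2 CPM in ATG7/SQSTM1 KO, 16.0, 14.8 and 14.8 CPM in ATG7 KO and 11.1, 11.4 and 10.3 CPM in control. Control was lowest and ATG7 KO highest, with no overlap. SOX9 was higher in both ATG7/SQSTM1 KO (log2 change 0.34, SE 0.074, edgeR adjusted p = 9.08e-04) and ATG7 KO (log2 change 0.47, SE 0.074, edgeR adjusted p = 1.15e-05) than in control, and the knockouts were not called different from each other. It was picked with its values in view. SOX18 (group F; ENSG00000203883; chr20:64047582-64049641, minus strand), a factor of lymphatic and blood vessels, had 10.3, 10.5 and 8.73 CPM in ATG7/SQSTM1 KO, 17.0, 17.9 and 17.3 CPM in ATG7 KO and 12.8, 12.7 and 11.6 CPM in control. ATG7 KO was highest and ATG7/SQSTM1 KO lowest. It changed by 0.49 (SE 0.078, edgeR adjusted p = 1.39e-05) in ATG7 KO against control, −0.33 (SE 0.081, edgeR adjusted p = 0.00282) in ATG7/SQSTM1 KO against control and −0.82 (SE 0.080, edgeR adjusted p = 1.14e-08) between both knockouts. SOX7, of the same group, went the other way, with 8.95, 7.89 and 8.67 CPM in ATG7/SQSTM1 KO, 5.05, 4.36 and 3.60 CPM in ATG7 KO and 7.38, 6.65 and 7.40 CPM in control. ATG7 KO was lowest and ATG7/SQSTM1 KO highest, and SOX7 changed by −0.72 (SE 0.12, edgeR adjusted p = 2.77e-05) in ATG7 KO against control and 0.97 (SE 0.12, edgeR adjusted p = 3.95e-07) between both knockouts. PINX1 shares 39.4% of the exon bases of SOX7 on the same strand and received 0 counts, so reads of PINX1 may stand under SOX7.

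**Figure D4:**
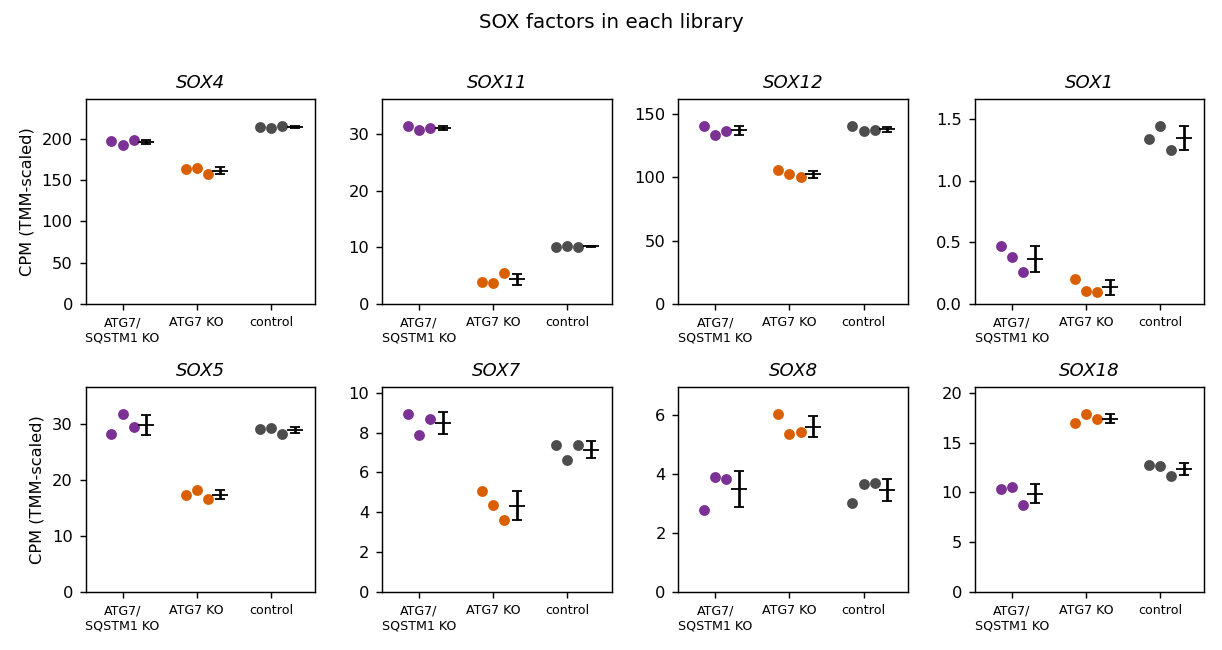
TMM-scaled CPM of 8 SOX genes in every library (points), with the mean and SD of each genotype in black (n = 3), in ATG7/SQSTM1 KO, ATG7 KO and control from left to right. SOX11 stands at 30.8 to 31.4 CPM in ATG7/SQSTM1 KO, 3.66 to 5.46 CPM in ATG7 KO and 10.1 to 10.3 CPM in control, while SOX8 and SOX18 are highest in ATG7 KO.

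For POU5F1, SOX2 and SOX21 the result rests on ATG7 KO replicate 3. POU5F1 (Oct-4), the pluripotency factor, had 0.321, 0.172 and 0.319 CPM in ATG7/SQSTM1 KO, 0.580, 0.436 and 1.79 CPM in ATG7 KO and 0.153, 0.276 and 0.448 CPM in control. Replicate 3 lay above all other libraries. Of the other ATG7 KO libraries, replicate 1 lay above control and replicate 2 within its range. With all libraries, POU5F1 was called higher in ATG7 KO than in control (log2 change 1.68, SE 0.54, edgeR adjusted p = 0.0146) and lower in ATG7/SQSTM1 KO than in ATG7 KO (log2 change −1.77, SE 0.54, edgeR adjusted p = 0.0102). It passed the count filter only with the ATG7 KO libraries, in which it was highest, and with no filter the values were 1.69 (edgeR adjusted p = 0.0121) and −1.77 (edgeR adjusted p = 0.00805). Without ATG7 KO replicate 3 both calls were lost (0.81, adjusted p = 0.198 and −0.89, adjusted p = 0.148 by edgeR), and the first was also lost without control replicate 1 (1.37, adjusted p = 0.062 by edgeR). POU5F1 has processed pseudogenes with which it can share reads, and TCF19 overlaps 8.6% of its exon bases, so its level is uncertain.

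SOX2 (ENSG00000181449; chr3:181711924-181714436, plus strand), the group B1 factor of pluripotent and neural stem cells, had 2.65, 2.44 and 2.07 CPM in ATG7/SQSTM1 KO, 2.49, 1.78 and 5.01 CPM in ATG7 KO and 3.36, 3.20 and 4.16 CPM in control. ATG7 KO replicate 3 was the highest of all libraries and replicate 2 the lowest, and the ATG7/SQSTM1 KO libraries lay below control. SOX2 was not called by edgeR in any comparison, with an adjusted p of 0.638 in ATG7 KO against control, 0.229 in ATG7/SQSTM1 KO against control and 0.38 between both knockouts. Without ATG7 KO replicate 3 it was called lower in ATG7 KO than in control (−0.73, adjusted p = 0.00534 by edgeR). In a fit of the 6 libraries compared alone it was also called lower in ATG7/SQSTM1 KO than in control (−0.57, adjusted p = 0.00991 by edgeR). Without ATG7 KO replicate 2 it was called lower in ATG7/SQSTM1 KO than in ATG7 KO (−0.66, adjusted p = 0.0326 by edgeR). SOX21, a group B2 factor that counteracts SOX2 in the neural tube, had 0.321, 0.275 and 0.478 CPM in ATG7/SQSTM1 KO, 0.205, 0.168 and 0.893 CPM in ATG7 KO and 0.580, 0.482 and 0.704 CPM in control, with replicate 3 of ATG7 KO again highest. It was not called with all libraries, and without that replicate it was called lower in ATG7 KO than in control (−1.63, adjusted p = 0.00935 by edgeR). SOX21 passed the count filter only with the control libraries, which had its highest mean, so that call is not independent of the filter. With no filter and all libraries, its log2 change in ATG7 KO against control was −0.45 (edgeR adjusted p = 0.555). SOX2 and SOX21 were picked with their values in view.

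**Figure D5:**
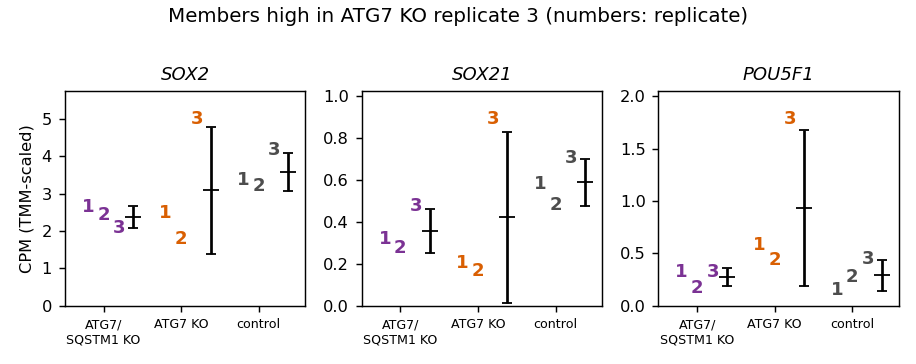
TMM-scaled CPM of SOX2, SOX21 and POU5F1 in every library, drawn as replicate numbers, with the mean and SD of each genotype in black (n = 3), in ATG7/SQSTM1 KO, ATG7 KO and control from left to right. ATG7 KO replicate 3 is the highest library in each panel, at 5.01, 0.893 and 1.79 CPM.

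The remaining 30 rows were not tested. Of these, 12 never received a count, namely the 8 surplus identifiers and NKX1-1, NKX2-6, POU3F4 and SOX14. A count of 0 over all 278563178 counts allows a level of up to 0.0108 CPM. The other 18 (LHX1, LHX3, LHX5, NKX3-2, NKX6-2, NKX6-3, PAX2, PAX4, PAX7, PAX8, POU1F1, POU4F2, POU4F3, POU5F2, SOX3, SOX10, SOX17 and SOX30) stayed at or below 0.351 CPM, the highest value being that of SOX30 in ATG7 KO. Among them are SOX10, the neural crest and Schwann cell factor, at 0 in every ATG7/SQSTM1 KO library, and PAX8, a thyroid and kidney factor, at a mean of 0.0229 CPM in ATG7/SQSTM1 KO, 0.0774 CPM in ATG7 KO and 0.106 CPM in control. SOX10, SOX30 and PAX8 were picked with their values in view, and differences between genotypes in these 18 genes were not tested.

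Genes known to work with these factors were described beside them as lists, each with its counts of genes called by edgeR at an adjusted p under 0.05. In ATG7 KO against control, 28.4% of all genes were called higher and 28.3% lower. In ATG7/SQSTM1 KO against ATG7 KO the shares were 30.5% and 29.9%. Of the partners of SIX-family and PAX proteins, 4 of 5 tested were lower and 1 higher in ATG7 KO than in control, and 3 were higher and 1 lower in ATG7/SQSTM1 KO than in ATG7 KO. EYA2, a phosphatase that coactivates SIX-family proteins, had 26.9, 29.2 and 29.5 CPM in ATG7/SQSTM1 KO, 9.28, 9.36 and 8.49 CPM in ATG7 KO and 33.6, 33.3 and 36.7 CPM in control. The ATG7 KO libraries stood below both other genotypes. EYA2 changed by −1.93 (SE 0.066, edgeR adjusted p = 3.89e-16) in ATG7 KO against control and 1.66 (SE 0.066, edgeR adjusted p = 5.68e-15) between both knockouts. DACH1, the corepressor of the same network, changed by −1.37 (SE 0.046, edgeR adjusted p = 3.68e-16) and 1.06 (SE 0.047, edgeR adjusted p = 2.87e-14) in these comparisons. EYA3 was also lower in ATG7 KO than in control (log2 change −0.29), whereas EYA4 was higher (0.23). The list's median log2 change in ATG7 KO against control was −0.29, beside −0.02 for all genes.

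Of 11 LIM cofactors and relatives, 6 were lower and 2 higher in ATG7 KO than in control, and 6 were higher and 1 lower in ATG7/SQSTM1 KO than in ATG7 KO. Of all genes, 28.3% were lower and 28.4% higher in the former comparison, and 30.5% higher and 29.9% lower in the latter. LDB1, the dimerising cofactor of LHX proteins, averaged 146 ± 2.6 CPM in ATG7/SQSTM1 KO, 96.5 ± 4.5 CPM in ATG7 KO and 131 ± 4.1 CPM in control (SD, n = 3 each). LDB1 was lower in ATG7 KO than in control (log2 change −0.44, SE 0.036, edgeR adjusted p = 8.53e-10), as was LMO1, a LIM-only protein that competes for LDB1 (log2 change −1.41, SE 0.15, edgeR adjusted p = 7.16e-08). RLIM, the ubiquitin ligase that degrades LDB cofactors, was higher in ATG7 KO than in control (log2 change 0.21). Of 9 PBX and MEIS cofactors, 2 were higher and 1 lower in ATG7 KO than in control. PKNOX2 was the lower one (log2 change −1.15). Of 5 Groucho corepressors, through which several of these factors repress, 3 were higher and 1 lower, with TLE1 at a log2 change of 0.39. Of 2 POU coactivators tested, 1 (HCFC1) was called higher, and none was without control replicate 1, control replicate 3, ATG7 KO replicate 2 or ATG7 KO replicate 3. The median log2 change in ATG7 KO against control was −0.44 for the LIM cofactors, −0.05 for the PBX and MEIS cofactors, 0.29 for the Groucho corepressors and −0.33 for the POU coactivators.

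Sensory neuron genes downstream of POU4F factors had a median log2 change of −1.69 in ATG7 KO against control. Of 8 tested, 7 were lower and 1 higher in ATG7 KO than in control, 5 were higher and 1 lower in ATG7/SQSTM1 KO than in control, and 7 were higher and 1 lower in ATG7/SQSTM1 KO than in ATG7 KO. Of all genes, 28.3% were lower and 28.4% higher in ATG7 KO than in control. The shares higher and lower were 19% and 19.6% in ATG7/SQSTM1 KO against control, and 30.5% and 29.9% between both knockouts. GAP43, a growth cone protein, had 48.7, 44.1 and 44.3 CPM in ATG7/SQSTM1 KO, 9.86, 9.46 and 9.92 CPM in ATG7 KO and 23.8, 24.7 and 23.8 CPM in control. ATG7/SQSTM1 KO was highest and ATG7 KO lowest. RET, a receptor tyrosine kinase, went the other way, with 3.94, 3.47 and 4.17 CPM in ATG7/SQSTM1 KO, 13.8, 13.8 and 13.6 CPM in ATG7 KO and 1.37, 0.930 and 1.70 CPM in control, and was higher in ATG7 KO than in control (log2 change 3.35, SE 0.15, edgeR adjusted p = 3.99e-14).

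Of 7 neural progenitor genes listed beside SOX2, 4 were lower and 2 higher in ATG7 KO than in control (28.3% and 28.4% of all genes). CDH2 (N-cadherin) averaged 37.4 ± 2.2 CPM in ATG7/SQSTM1 KO, 13.5 ± 0.89 CPM in ATG7 KO and 54.5 ± 0.62 CPM in control, and MSI1, an RNA-binding protein of neural stem cells, averaged 46.2 ± 1.5 CPM in ATG7/SQSTM1 KO, 27.4 ± 0.51 CPM in ATG7 KO and 45.8 ± 1.3 CPM in control. The genes that were higher in ATG7 KO were FABP7, a fatty acid binding protein of radial glia, at 11.1 ± 0.47 CPM in ATG7/SQSTM1 KO, 147 ± 2.8 CPM in ATG7 KO and 33.3 ± 2.3 CPM in control, and NES (nestin), at 1.42 ± 0.18 CPM in ATG7/SQSTM1 KO, 4.12 ± 0.86 CPM in ATG7 KO and 0.840 ± 0.098 CPM in control (SD, n = 3 each). Of 11 islet and enteroendocrine factors, 6 were lower (28.3% of all genes were) and 3 higher in ATG7 KO than in control. The share higher was near the 28.4% of all genes. PROX1, a homeobox factor of lymphatic, liver and endocrine cells, was lower (log2 change −2.02, SE 0.074, edgeR adjusted p = 1.43e-15), as was INSM1, a zinc finger factor of neuroendocrine cells that is also counted among the markers above (log2 change −1.54, SE 0.045, edgeR adjusted p = 2.97e-17). MNX1, a factor of motor neurons and pancreas, had a log2 change of −1.21 and FOXA1, a factor of endoderm, one of −1.18. The lists' median log2 changes were −0.74 for the neural progenitor genes and −0.39 for the islet factors.

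Of 21 other homeobox factors, 12 were lower and 4 higher in ATG7 KO than in control, and 11 were higher and 3 lower in ATG7/SQSTM1 KO than in ATG7 KO. The shares of all genes were 28.3% lower and 28.4% higher in the former comparison, and 30.5% higher and 29.9% lower in the latter. EMX1, a cortical factor, had 17.8, 16.8 and 17.9 CPM in ATG7/SQSTM1 KO, 6.69, 6.24 and 6.29 CPM in ATG7 KO and 17.3, 19.9 and 19.0 CPM in control, with ATG7 KO below the rest, and DLX6, a factor of the forebrain and branchial arches, was lower in ATG7 KO than in control (log2 change −1.14). MSX2, a target of BMP signalling, was higher in ATG7 KO than in control (log2 change 1.85, SE 0.13, edgeR adjusted p = 1.63e-10), as was DLX3, a factor of skin and placenta (log2 change 0.52). The list's median was −0.21. Of 6 cartilage genes that SOX5, SOX6 and SOX9 regulate, 2 were higher and 1 lower in ATG7 KO than in control, with COL2A1, the main cartilage collagen, at a log2 change of −1.14 and MATN3, a matrix protein, at 1.17. Of 7 targets of SOX10, 1 was higher (CNP, 0.63) and 2 were lower (ERBB3, −1.01, and FOXD3, −0.44), and of 5 endothelial genes listed beside SOX7, SOX17 and SOX18, 1 was higher (TEK, 0.90) and 1 lower (FLT4, −1.10). Counts in the small cartilage, SOX10 and endothelial lists lay near or under the shares of all genes. Of 5 tested noncoding neighbours of members, none was higher and 2 were lower in ATG7 KO than in control. PANTR1, transcribed beside POU3F3, had 1.78, 1.78 and 1.62 CPM in ATG7/SQSTM1 KO, 0.751, 0.369 and 0.351 CPM in ATG7 KO and 1.95, 1.58 and 2.37 CPM in control, and its ATG7 KO libraries lay below the others, as did those of POU3F3. SOX21-AS1, beside SOX21, was lower in both ATG7/SQSTM1 KO (log2 change −1.44, SE 0.31, edgeR adjusted p = 9.52e-04) and ATG7 KO (log2 change −2.15, SE 0.34, edgeR adjusted p = 1.36e-05) than in control. The medians in ATG7 KO against control were 0.20 for the cartilage genes, 0.12 for the SOX10 targets, 0.04 for the endothelial genes and −0.45 for the noncoding neighbours.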

How the data were processed

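RNA-seq was done on 9 DMS273 libraries. Per the labels' protocols, rRNA was depleted and a directional kit with dUTP was used. The submitters' processing notes name HISAT2 and hg38, while how reads were counted (program, gene annotation, strand) is not given in the sources used here. Raw counts per gene were deposited as 1 table, of which 1 row and 1 column that hold no gene or sample were left out. Its empty cells were read as 0, since no cell held a 0.

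Counts of all genes were tested with edgeR 4.0.16 in R 4.3.3 (TMM, a minimum count of 10 in filterByExpr, robust quasi-likelihood fit of 3 group means over all 9 libraries with 6 residual degrees of freedom), and p-values were adjusted by Benjamini-Hochberg over 18847 genes. A call is an adjusted p under 0.05. The script was tested on simulated data. Coordinates, exon lengths and overlaps come from GENCODE 29 on GRCh38. Values in every library are given for members called with a 2-fold change and 1 CPM in the higher group, for the 8 members highest per kilobase in control, and for members called in one direction between ATG7 KO and control and in the opposite one between both knockouts, with log2 changes of at least 0.5. Of each partner list up to 4 genes with the smallest p per comparison could be named. Members, lists and rules were chosen with earlier results of these data known. Intervals and floors cover counting error only. The alternatives were DESeq2 1.42.0, other scalings and filters, a replicate block, the 6 compared libraries alone and leaving out each library. Some members and listed genes that meet these rules are counted but not reported here by name.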

Additional observations from a re-analysis of the deposited data

How the results depend on the processing

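More members were called lower than higher in ATG7 KO against control, and more higher than lower in ATG7/SQSTM1 KO against ATG7 KO, under every setting tried. In ATG7/SQSTM1 KO against control, where 10 were called each way, the balance turned with the setting. In ATG7 KO against control, 3 members were called higher with a minimum mean of 1 CPM, which tests fewer low genes, against 5 with the settings used, and leaving out 1 library gave 3 to 6 higher and 25 to 28 lower. The lowest of these, 3, came without ATG7 KO replicate 3, and the cause was not tested. In ATG7/SQSTM1 KO against control, fitting the 6 libraries alone gave 13 higher and 11 lower, DESeq2 10 and 8, and leaving out control replicate 3 11 and 8, but leaving out control replicate 2 gave 8 and 10 and leaving out ATG7/SQSTM1 KO replicate 2 gave 8 and 11. For SOX2, which was not called, the log2 change reversed in both comparisons with ATG7 KO. Leaving out 1 library gave −0.73 to 0.079 in ATG7 KO against control, the positive value coming without ATG7 KO replicate 2, and −0.66 to 0.16 in ATG7/SQSTM1 KO against ATG7 KO, the positive value coming without ATG7 KO replicate 3. Same-numbered libraries correlated at −0.0613 to 0.0234 in their deviations from the group means, so no shared effect of the replicate number was seen. Whether same-numbered libraries were handled together is not stated in the labels, and these correlations cannot show it. With the replicate number as a block the counts of members stayed as they were, at 5 higher and 27 lower for ATG7 KO and 10 and 10 for ATG7/SQSTM1 KO, each against control, and 26 and 4 between both knockouts. Over all genes the block gave 10564, 7137 and 11262 calls for these comparisons, where 10688, 7281 and 11395 were called without it. No scaling moved the median of all genes by 0.1 on the log2 scale. Counts of families and partner lists under each setting were added after the data were seen. At this depth a difference in a gene under about 0.1 CPM could not be seen.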

Other observations

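ATG7 KO replicate 3, in which POU5F1, SOX2 and SOX21 were highest, was also the highest of all 9 libraries for some other genes, which were picked with their values in view. They were LIN28A, TRIM71, DPPA4 and NANOG, genes of pluripotent and germ cells, and LRP2. LIN28A, an RNA-binding protein that blocks let-7 maturation, had 0.204, 0.515 and 0.733 CPM in ATG7/SQSTM1 KO, 0.614, 0.335 and 4.85 CPM in ATG7 KO and 0.275, 0.345 and 0.608 CPM in control. TRIM71, an RNA-binding ubiquitin ligase of stem cells, had 1.46, 1.27 and 1.24 CPM in ATG7/SQSTM1 KO, 0.546, 0.537 and 2.52 CPM in ATG7 KO and 1.19, 1.31 and 1.153 CPM in control. DPPA4, a chromatin factor of pluripotent cells, stood at 0.341, 0.134 and 1.28 CPM in ATG7 KO, and NANOG received counts in replicate 3 of ATG7 KO alone, at 0.160 CPM. LRP2 (megalin), an endocytic receptor, had 1.11, 0.927 and 0.988 CPM in ATG7/SQSTM1 KO, 0.102, 0.101 and 1.56 CPM in ATG7 KO and 0.336, 0.448 and 0.736 CPM in control. LIN28B and SALL4, also genes of pluripotent and germ cells, did not single out that library, with 13.3, 14.3 and 13.5 CPM for LIN28B and 6.31, 5.20 and 6.51 CPM for SALL4 in ATG7 KO. No group of 3 libraries was tested for an outlier.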
